A study of Arabidopsis thaliana with 18 samples.

Results

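The comparison described here set whole plants of Arabidopsis thaliana that lack phytochrome B against wild-type plants, averaged over a mock spray and a hormone spray. It used all 10 arrays whose titles name phyb or Col, of 18 arrays in the series. The 6 phyb arrays carried the phyB-9 allele (3 Control, 3 MeJA) and the 4 Col arrays were wild-type Col-0 (2 Control, 2 MeJA). All plants were 4 weeks old and had been raised in short days. The Control plants were sprayed with a water mock and the MeJA plants with 250 µM methyl jasmonate, the volatile methyl ester of the defence hormone jasmonate, and both were harvested 3 h later as pools of at least 4 plants. Each treatment had equal weight in the genotype mean, so an exchange of treatment labels among the phyb arrays would leave that mean unaltered. The other 8 arrays, 2 each of mock-sprayed and MeJA-sprayed jaz10 and jaz10phyb, carried a jaz10 mutation without or with phyB-9, and served as a second measurement of the same genotype difference.

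Phytochrome B is a photoreceptor that is switched on by red light and off by far-red light. In its active form it enters the nucleus and promotes the breakdown of PIF transcription factors, which otherwise activate growth genes in shade, many of them tied to auxin. Plants without it show a constant form of shade avoidance, with long petioles and early flowering, and shade signals are known to dampen defences that depend on jasmonate. The series asks how phytochrome B and JAZ10, a repressor of jasmonate signalling, shape the response to MeJA. The genotype mean over both treatments answers a narrower question, namely which transcripts differ with phytochrome B whether or not jasmonate was sprayed.

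Each value is the signal of a probe set, a group of short probes summarised to a single linear intensity. A gene was tested where a probe set annotated to it alone had a signal of 50 or more on some array, which held for 5689 of 16548 such genes. The tested gene with the lowest maximum reached 50.0 and the untested gene with the highest maximum reached 49.99. A dim gene could thus enter the test through a single genotype in which it was brightest. Differences of such genes are partly selected by this filter, in either direction. PHYB and JAZ10 have no probe set paired with them in the annotation used, so the mutant genes could not check the genotype labels. Differences are phyb minus Col on the log2(signal + 1) scale, given with their standard errors, and folds are read from that scale, which understates changes of dim genes. A gene is called where limma's Benjamini-Hochberg adjusted p over all 5689 genes is under 0.05. Nothing in the labels tells if replicate pools came from separate growths. The p-values therefore reflect how far these pools differ, which may be technical, and 2 or 3 arrays in a group limit the precision.

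In 2 phyb arrays the treatment label and the transcripts disagreed. A treatment position was computed for each array from the 100 genes most raised and the 100 most lowered by MeJA in the jaz10 and jaz10phyb arrays, which are not part of the phyb and Col comparison. The Col Control arrays lay at -1.60 and -1.74 and the Col MeJA arrays at 1.92 and 1.99. The phyb Control arrays lay at -1.73, 1.60 and -1.29, and the phyb MeJA arrays at 1.68, 1.24 and -1.65. The arrays labelled phyb Control 2 and phyb MeJA 3 thus stood on the side of the other treatment. They are kept as labelled, and results that they touch are given with and without them. On the gene with the largest genotype difference, AT3G55920, these 2 arrays read 16.8 and 15, within the range of the other 4 phyb arrays and far below every Col array. That gene was picked by a contrast that includes these 2 arrays, so their values on it are no independent check of their genotype.

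Markers of single organs and cell types were mostly not tested: none of the epidermal, vascular, floral or seed markers entered the test. The guard cell lineage regulators FMA and SPCH differed by -0.30 ± 0.08 (adjusted p = 0.11) and -0.43 ± 0.14 (adjusted p = 0.181), the root beta-glucosidase PYK10 by -0.35 ± 0.24 (adjusted p = 0.637) and the trichome regulator TRY by -0.36 ± 0.22 (adjusted p = 0.593). None of these 4 passed the test, and their part in the results below was not tested. In whole plants, fewer cells of a type and less RNA per cell cannot be told apart.

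The comparison of phyb with Col called a small set of genes, most of which differed by less than 2-fold. A gene that was not called is not thereby shown to be unchanged. Plant defensins rose, and so did a thionin, while DFR of anthocyanin synthesis, both genes of a vascular peptide signal and an expansin fell. In all, 71 genes were called, which is 1.25% of the genes tested: 25 were higher in phyb (0.439%) and 46 lower (0.809%), while 704 genes had an unadjusted p under 0.05. The 25 higher genes differed by 0.37 to 2.44 on the log2 scale, with a median of 0.59, and the 46 lower genes by sizes of 0.31 to 3.14, with a median of 0.77. A difference of at least 2-fold was reached by 3 of the higher and 11 of the lower genes. In 21 of 25 higher genes and 42 of 46 lower genes the phyb arrays lay on 1 side of the Col arrays within each treatment, which across all genes tested held for 4.68% (1.76% higher and 2.92% lower). Without phyb Control 2 and phyb MeJA 3, 225 genes were called (3.96%; 106 higher, 1.86%, and 119 lower, 2.09%), and 70 of the 71 were among them. The exception, AT1G16850 (0.56 ± 0.13, adjusted p = 0.0471), came to 0.0563 there, and its call was also lost without any of 13 single arrays (adjusted p up to 0.208). The count fell to 35, 42, 36 and 36 when Col Control 1, Col Control 2, Col MeJA 1 or Col MeJA 2 was left out and to 43 without phyb Control 3, and it came to 167 without phyb Control 2. Quantile normalization gave 40 higher and 44 lower genes, a more even split. Of the 71 genes, 28 kept their call under each array left out in turn and under all other settings tried.

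The largest difference was in AT3G55920. It read 127 and 130 in the Col Control arrays and 162 and 136 in the Col MeJA arrays. In phyb it read 8.94, 16.8 and 13.3 after mock and 18.6, 18.9 and 15 after MeJA. The highest phyb array was thus far below the lowest Col array, in both treatments, and the difference was -3.14 ± 0.16 (adjusted p = 1.51e-07), or 8.79-fold on this scale. Its phyb signals lay near the array medians over all probe sets (14.87 to 17.5), and no detection call was used here, so that fold is not exact: with 16 in place of 1 added to the signal the difference was -2.31, also called. AT4G13575 read 277, 292, 272 and 339 in Col, and 66.4, 64.8, 48.9, 75.7, 63.2 and 68.8 in phyb. Its difference of -2.18 ± 0.15 (adjusted p = 2.95e-06) was likewise close in size after mock (-2.24) and after MeJA (-2.12). Neither gene was called for MeJA in the jaz10 and jaz10phyb arrays, where the MeJA differences were 0.09 (adjusted p = 0.74) and 0.01 (adjusted p = 0.98). The sources used here give no name or product for either gene.

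**Figure D1:**
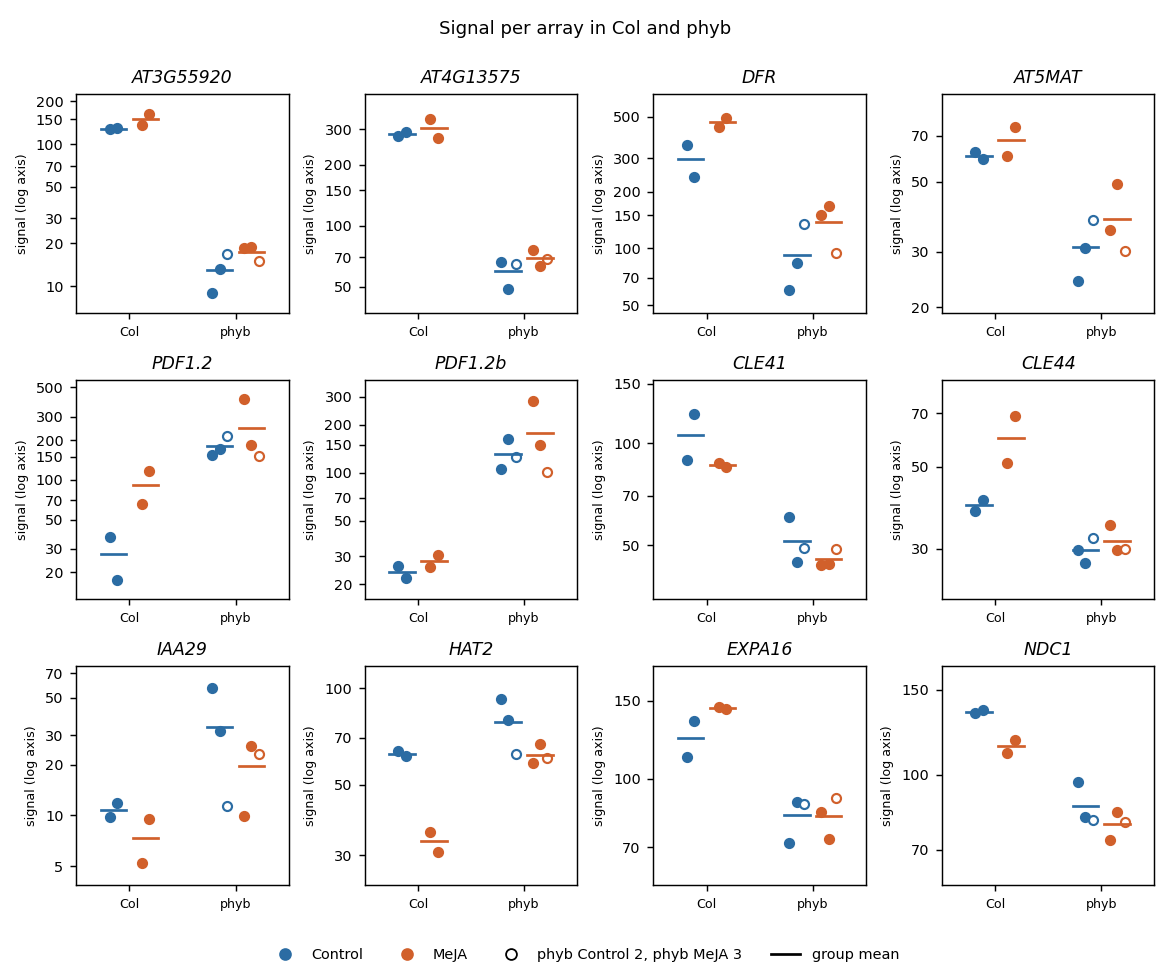
Signal of 12 genes in each of the 4 Col and 6 phyb arrays (vertical axis, signal on a log scale; blue, Control; orange, MeJA; bars, arithmetic group means; open circles, phyb Control 2 and phyb MeJA 3). AT3G55920 lies between 127 and 162 in Col and between 8.94 and 18.9 in phyb, while PDF1.2b lies between 22.0 and 30.5 in Col and between 101 and 281 in phyb.

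The largest rises were in 2 genes of the ethylene and jasmonate branch of defence. PDF1.2 and PDF1.2b encode plant defensins, small secreted antifungal proteins whose transcripts need both ethylene and jasmonate signals. PDF1.2b read 26.1 and 22.0 in Col Control, 30.5 and 25.6 in Col MeJA, 106, 125 and 162 in phyb Control and 281, 150 and 101 in phyb MeJA. All 6 phyb arrays lay above all 4 Col arrays, and the difference was 2.44 ± 0.31 (5.42-fold, adjusted p = 0.00108). PDF1.2 read 37.1, 17.5, 116 and 66.0 in Col and 153, 214, 171, 407, 184 and 151 in phyb, a difference of 2.05 ± 0.33 (adjusted p = 0.00573). Its phyb and Col arrays did not overlap either, although the Col MeJA arrays came closer than the Col Control arrays. These near-identical defensin genes may share signal through cross-hybridisation, so their differences are not 2 independent measurements.

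THI2.2, a thionin, from a family of small antimicrobial peptides, read 34.9, 45.0, 46.5 and 43.0 in Col and 64.0, 70.3, 72.4, 51.8, 56.7 and 57.0 in phyb. The rise of 0.54 ± 0.10 (adjusted p = 0.0134) was small but free of overlap, and it missed the threshold without Col Control 1 or Col MeJA 2 (adjusted p up to 0.0941). EIN3, the transcription factor that activates ethylene responses, was at 0.30 ± 0.08 and did not pass (adjusted p = 0.103). It passed without the 2 doubted arrays (adjusted p = 0.0446). Of the 23 genes of the ethylene and jasmonate defence list, 10 had a probe set of their own and 4 were tested. THI2.2 reached the minimum signal for testing only in arrays without phytochrome B (at most 46.5 with it). PDF1.2b reached it in jaz10 (up to 63.2) but not in Col. The count and median that follow are thus partly selected by the filter. Of the 4 tested genes, 3 were called higher and none lower, where 0.439% of all genes tested were called higher and 0.809% lower. The list median was 1.29 against -0.02 over all genes. Jasmonate genes themselves showed no such shift: of 5 tested none was called, with a median of -0.03. They were the synthesis enzyme OPCL1 (0.15 ± 0.21), the transcription factors MYC3 (0.00 ± 0.14) and MYC4 (-0.05 ± 0.12), the methyltransferase JMT (-0.19 ± 0.55) and JRG21 (-0.03 ± 0.67), a gene whose signal follows MeJA. The wide errors of JMT and JRG21 come with the doubted arrays: JRG21 read 14.1 and 21.6 in phyb Control 1 and 3 but 189 in phyb Control 2, and 154 and 108 in phyb MeJA 1 and 2 but 14.5 in phyb MeJA 3.

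In anthocyanin synthesis DFR was lower in phyb, the single call among 2 tested genes of the 24 on the anthocyanin and flavonoid list. DFR encodes dihydroflavonol reductase, which makes the leucoanthocyanidin precursors of these red and purple pigments. It read 355 and 240 in Col Control, 494 and 442 in Col MeJA, 60.3, 134 and 83.5 in phyb Control and 151, 167 and 94.3 in phyb MeJA. Every phyb array was below every Col array, and DFR fell by 1.76 ± 0.21 on the log2 scale (3.39-fold lower, adjusted p = 0.00102). DFR was also raised by MeJA in the jaz10 and jaz10phyb arrays (1.31, adjusted p = 0.0046), and in phyb the 3 arrays on the MeJA side read higher than the other 3. AT5MAT, which adds a malonyl group to anthocyanins, read 62.0, 59.0, 74.7 and 60.5 in Col and 24.3, 37.9, 30.8, 35.2, 49.1 and 30.1 in phyb. Its fall of 0.90 ± 0.18 (adjusted p = 0.0278) again left no overlap, but the call was lost without any of the 4 Col arrays, phyb Control 1 or phyb Control 3 (adjusted p up to 0.141).

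UF3GT, which adds xylose to anthocyanin glucosides, read 17.3, 17.4, 31.0 and 28.6 in Col and 5.90, 17.5, 14.7, 15.1, 15.2 and 11.2 in phyb. The highest phyb value, 17.5 in the doubted array phyb Control 2, overlapped with the Col Control arrays, and the difference of -0.80 ± 0.23 did not pass (adjusted p = 0.13). It passed without that array (adjusted p = 0.0308) and without both doubted arrays (-0.88, adjusted p = 0.0347). CHIL, a chalcone isomerase-like protein that aids flavonoid synthesis, fell by 0.75 ± 0.15 (adjusted p = 0.0278). CHIL read 65.8, 52.3, 79.9 and 92.2 in Col and 54.4, 41.1, 38.2, 40.6, 31.5 and 49.0 in phyb, so that phyb Control 1 overlapped with Col Control 2. The call of CHIL, a gene chosen after its values were seen, was lost without any Col array, phyb Control 3 or phyb MeJA 2 (adjusted p up to 0.152). AT5MAT and CHIL are not on the anthocyanin and flavonoid list, whose tested genes, DFR and UF3GT, had a median of -1.28. UF3GT reached the minimum signal for testing only in jaz10 (up to 54.7), and read at most 17.5 in arrays without phytochrome B. That median is thus partly selected by the filter.

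The list of shade genes and PIF targets had 3 tested members of 32 listed, of which 1 was called higher. A separate auxin list of 101 genes had 2 tested members, HAT2 and IAA29, which are on the shade list too. HAT2, a homeodomain-leucine zipper factor induced by auxin and shade, read 63.5, 61.3, 30.7 and 35.6 in Col and 93.0, 62.3, 79.8, 58.2, 67.2 and 60.5 in phyb. HAT2 rose by 0.59 ± 0.12 (1.51-fold, adjusted p = 0.0324), with the larger gap after MeJA, where all phyb arrays lay well above Col; after mock, phyb Control 2 lay between both Col Control arrays. Leaving out any Col array, phyb Control 1, phyb Control 3, phyb MeJA 2 or any MeJA array of jaz10 or jaz10phyb took the call away (adjusted p up to 0.161). IAA29, an auxin-induced repressor of auxin signalling and a known PIF target, read 9.81 and 11.8 in Col Control, 9.56 and 5.22 in Col MeJA, 57.4, 11.3 and 31.9 in phyb Control and 9.97, 25.7 and 23.1 in phyb MeJA. The phyb arrays spread widely, and the difference of 1.26 ± 0.35 did not pass (adjusted p = 0.119). It passed without phyb Control 2 (adjusted p = 0.00482) and without both doubted arrays (1.49, adjusted p = 0.00413). IAA29 reached the minimum signal for testing in phyb Control 1 alone (57.4), so its difference from Col is partly selected by the filter. BIM1, a brassinosteroid-linked transcription factor, was at -0.03 ± 0.13 (adjusted p = 0.974). PIF7, itself a shade-signalling PIF factor and the light signalling gene tested, was at -0.49 ± 0.13 (adjusted p = 0.0962, and 0.0206 without the doubted arrays). Between jaz10phyb and jaz10 it was at -0.87 and was called lower.

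A peptide signal of the vascular tissue was lower in phyb in both of its genes. CLE41 and CLE44 encode the same secreted peptide, which keeps vascular stem cells from turning into xylem. CLE41 read 89.3, 122, 84.9 and 87.6 in Col and 60.6, 48.9, 44.7, 43.7, 43.9 and 48.6 in phyb, and fell by 0.97 ± 0.11 (1.96-fold lower, adjusted p = 0.00054). CLE44 read 38.0, 40.8, 68.6 and 51.3 in Col and 29.8, 32.1, 27.5, 34.7, 29.8 and 29.9 in phyb, and fell by 0.65 ± 0.10 (adjusted p = 0.00556). CLE44 reached the minimum signal for testing only in arrays with phytochrome B (at most 35.8 without it). Its fall is thus partly selected by the filter. Neither gene had any overlap between genotypes, and both kept their call without any array. The phyb values of CLE44 were almost level across treatments, whereas the Col values were higher after MeJA.

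Among genes of the cell wall and of sugar, 1 member each was called. EXPA16, an expansin, which loosens cell walls, read 112, 135, 144 and 145 in Col and 71.4, 87.8, 88.5, 84.2, 72.9 and 90.2 in phyb, and fell by 0.69 ± 0.11 (adjusted p = 0.00556). The other 6 tested wall-loosening genes were not called, among them EXPA4 (0.29 ± 0.14) and EXPA8 (0.50 ± 0.63), so an expansin that was lower stood beside a list median of 0.11. No gene of wall polymer synthesis was called of 16 tested (median 0.08). Its nearest member, CSLC04, a glucan synthase of xyloglucan, was at 0.36 ± 0.09 (adjusted p = 0.0696), and passed without phyb MeJA 3 (adjusted p = 0.0303) and without both doubted arrays (adjusted p = 0.0215). SWEET1, a glucose transporter, read 56.0, 53.4, 73.7 and 71.9 in Col and 40.0, 39.5, 38.8, 59.2, 34.3 and 38.7 in phyb. SWEET1 fell by 0.61 ± 0.13 (adjusted p = 0.0368), and the call was lost without any Col array, phyb Control 1 or 3, phyb MeJA 2 or 3, or any MeJA array of jaz10 or jaz10phyb (adjusted p up to 0.153). It was the single call among 11 sugar and starch genes, whose median was -0.06.

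Several other named genes differed. NDC1, a plastid NAD(P)H dehydrogenase of quinone metabolism, read 134, 136, 118 and 111 in Col and 96.6, 80.6, 81.7, 73.2, 83.7 and 80.0 in phyb, and fell by 0.59 ± 0.08 (adjusted p = 0.00225). JKD, a zinc finger factor of root patterning, read 46.6, 47.2, 28.7 and 25.9 in Col and 77.8, 49.9, 60.6, 42.3, 49.7 and 57.7 in phyb, and rose by 0.61 ± 0.13 (adjusted p = 0.0401). That call was weak: it was lost without any single array other than phyb Control 2, phyb MeJA 1, jaz10 MeJA 1 and jaz10 MeJA 2 (adjusted p up to 0.156). JKD also reached the minimum signal of 50 only in arrays without phytochrome B (up to 77.8, against 47.2 or less with it). BRH1, a RING finger protein responsive to brassinosteroid, read 362, 367, 330 and 372 in Col and 445, 504, 510, 424, 484 and 496 in phyb. The rise of BRH1, 0.41 ± 0.07 (adjusted p = 0.0138), was small against a tight spread, and was not called without Col Control 1, Col Control 2 or Col MeJA 1 (adjusted p up to 0.0973).

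UPP, a uracil phosphoribosyltransferase that salvages pyrimidine bases, fell by 0.40 ± 0.08 (adjusted p = 0.021), from 97.1 to 115 in Col to 73.9 to 87.5 in phyb. Its call was lost without Col Control 1, Col MeJA 2, phyb Control 3 or phyb MeJA 2 (adjusted p up to 0.133). UBP20, a ubiquitin-specific protease, fell by 0.31 ± 0.06 (adjusted p = 0.029). Its 4 Col values of 55.4, 54.0, 65.0 and 69.6 and its 6 phyb values of 44.1, 45.9, 43.1, 49.4, 55.4 and 55.6 were apart only within treatments, and the call was lost without any Col array, phyb Control 1 or 3, or phyb MeJA 1 or 2 (adjusted p up to 0.139). Chosen after its values were seen, FDH, the mitochondrial formate dehydrogenase, rose by 0.51 ± 0.10 (adjusted p = 0.021), and the call was lost without Col Control 1, Col Control 2, Col MeJA 2, phyb Control 3 or phyb MeJA 2 (adjusted p up to 0.123).

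Of the 71 called genes, 54 have no gene symbol in the annotation used here. They are given without a role, apart from AT1G52220 and AT4G14480, which have synonyms. The largest rise among them was that of AT1G24145, with 20.4, 28.0, 30.1 and 31.1 in Col and 75.2, 49.7, 57.3, 51.2, 77.9 and 58.0 in phyb (1.14 ± 0.15, adjusted p = 0.00123). Next was AT1G35710 (0.95 ± 0.21, adjusted p = 0.0453), chosen after its values were seen, in which phyb Control 2 (73.1) lay between the Col Control arrays (80.7 and 65.6) and whose call was lost without any of 14 single arrays (adjusted p up to 0.177). AT5G03120 (0.89 ± 0.15), AT3G22235 (0.81 ± 0.15), AT1G48210 (0.79 ± 0.13) and AT5G24210 (0.75 ± 0.10) followed, each with no overlap between genotypes within a treatment. AT1G24145, AT5G03120 and AT1G48210 reached the minimum signal of 50 only in arrays without phytochrome B. With it they read at most 39.1, 37.8 and 48.6, so their rises are partly selected by the filter. The call of AT5G03120 was lost without Col MeJA 1 (adjusted p = 0.0649) and that of AT3G22235 without Col Control 2, Col MeJA 1 or Col MeJA 2 (adjusted p up to 0.0911). Below AT3G55920 and AT4G13575, the largest falls were in AT4G12005 (-1.22 ± 0.14, adjusted p = 0.000558), AT4G22520 (-1.19 ± 0.20, adjusted p = 0.00828) and AT4G14090 (-1.17 ± 0.15, adjusted p = 0.00115). AT4G14090 read 33.5, 23.6, 48.2 and 41.3 in Col and 11.7, 16.5, 13.3, 15.8, 19.9 and 14.9 in phyb, with no overlap. AT4G22520 was not called without Col Control 1 or Col MeJA 2 (adjusted p up to 0.0634). AT4G12005, AT4G22520 and AT4G14090 reached the minimum signal only in arrays with phytochrome B. Without it they read at most 34.0, 44.4 and 25.3.

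Transcripts of the light-harvesting machinery differed little. None of 10 tested nuclear photosynthesis genes was called, with differences from -0.29 to -0.03 and a median of -0.12. All 10 values were below 0, LHCB4.2, an antenna protein of photosystem II, lowest at -0.29 ± 0.12 (adjusted p = 0.324), and 56.8% of all genes tested were below 0 as well. Between jaz10phyb and jaz10 the median of these genes was -0.25, and 1 was called lower (3 without the doubted arrays). There 0.598% of all genes tested were called lower. Among the 5 chlorophyll synthesis genes none was called (median 0.03): PORB was at 0.11 ± 0.15, CHLM at -0.20 ± 0.13 and HEMA2 at 0.14 ± 0.09. Genes of the plastid genome were flatter still. Across the 56 plastid-encoded genes in the lists the differences ran from -0.19 to 0.16, and none of the 63 tested plastid genes was called. The medians were -0.02 over 19 photosynthesis genes, -0.03 over 14 genes of the NDH complex (10 of them plastid-encoded), 0.01 over 13 plastid ribosome genes and 0.07 over the 4 RNA polymerase genes.

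No call was made in 6 lists of gene families, 5 of enzymes and related proteins and 1 of the calmodulin-binding IQD proteins. The 17 UGT glucosyltransferases had a median of -0.08 and ranged from -0.80 (UF3GT) to 0.45 (UGT72E1, which glucosylates lignin precursors, adjusted p = 0.106). UGT72E1 passed without phyb Control 2 or phyb MeJA 1 (adjusted p down to 0.00682), and UGT76E11, at -0.66 ± 0.18, without phyb Control 2 (adjusted p = 0.00389). Medians of the other families were 0.06 over 13 SCPL carboxypeptidase-like genes, -0.03 over 8 BGLU beta-glucosidases, 0.05 over 8 CYP71B genes, -0.01 over 8 IQD genes and 0.04 over 8 ALDH genes. No call was made among the 4 flowering-time genes (AGL24, LD, SMZ and SNZ, from -0.33 to 0.18) or for the gibberellin receptors GID1A (-0.02 ± 0.20) and GID1B (-0.36 ± 0.33). In lists with 1 tested gene, the clock gene GI was at 0.16 ± 0.14, the salicylate methyltransferase BSMT1 at -0.85 ± 0.50 (adjusted p = 0.557, and 0.00555 without the doubted arrays), the senescence factor WRKY6 at 0.00 ± 0.12 and the lignin enzyme HCT at -0.23 ± 0.17. Altogether 204 genes of the lists were tested, and 4 were called higher and 4 lower, where 0.439% and 0.809% of all genes tested were called.

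**Figure D2:**
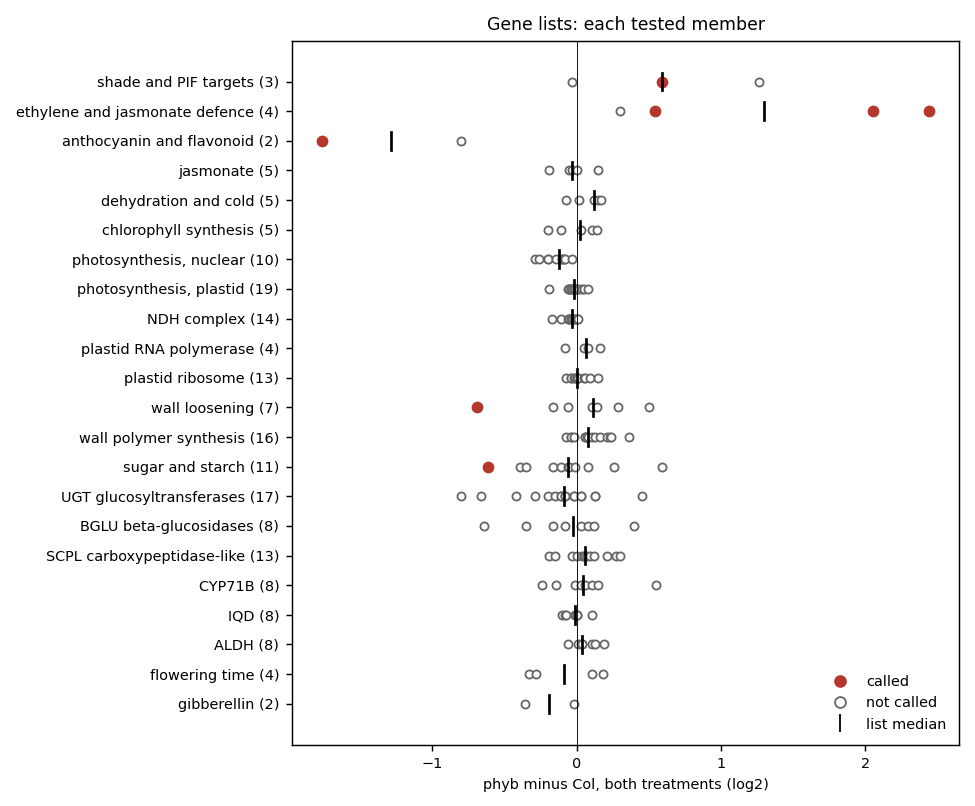
Difference phyb minus Col over both treatments (horizontal axis, log2) for each tested member of 22 gene lists, with the number tested in brackets (filled, called; open, not called; bars, list medians). The called points are 2.44, 2.05 and 0.54 in the defence list, 0.59 (HAT2), -1.76 (DFR), -0.69 (EXPA16) and -0.61 (SWEET1), while the plastid lists stay between -0.19 and 0.16.

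Taken within each treatment, the genotype difference had fewer calls. After the mock spray 27 genes were called (0.475%), 11 higher (0.193%) and 16 lower (0.281%), and after MeJA 55 (0.967%), 13 higher (0.229%) and 42 lower (0.738%). All 71 genes called over both treatments had the same sign in each. They were called on the mean of both treatments, which itself favours equal signs. Of the 71, 13 were called in each treatment: 3 higher and 10 lower. The 3 higher genes were PDF1.2b (2.38 after mock, 2.50 after MeJA), AT1G24145 (1.29 and 0.98) and AT5G24210 (0.82 and 0.68), and the lower ones included AT3G55920, DFR (-1.72 and -1.80) and CLE41 (-1.02 and -0.91). Some genes differed mainly in a single treatment as measured: PDF1.2 was at 2.75 after mock (adjusted p = 0.023) and 1.35 after MeJA (adjusted p = 0.21), and AT4G12005 at -0.73 (adjusted p = 0.18) and -1.71 (adjusted p = 0.0009). For neither gene was the difference between treatments called. The counts without the doubted arrays were 58 after mock (1.02%) and 160 after MeJA (2.81%). Leaving out Col Control 1, Col Control 2 or phyb Control 3 left 3, 2 and 4 calls after mock, and 15 without phyb Control 2. Leaving out Col MeJA 1, Col MeJA 2 or phyb MeJA 2 left 10, 8 and 13 after MeJA, and 30 without phyb MeJA 3. Without either Col Control array it left 34, without either jaz10 Control array 31 and without any jaz10phyb array 29 or 30, and 164 were called without phyb Control 2.

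The test of the difference between treatments called 1 gene (0.0176%), with 901 at an unadjusted p under 0.05 and 4 called without the doubted arrays (0.0703%). This gene, AT3G56260, read 30.8 and 25.0 in Col Control and 72.8 and 71.9 in Col MeJA, but 31.1, 45.9 and 33.4 in phyb Control and 33.0, 32.3 and 33.4 in phyb MeJA. Col thus rose with MeJA while 5 of 6 phyb arrays stayed near the Col Control level, and the genotype difference was lower by 1.49 after MeJA. AT3G56260 reached the minimum signal of 50 only in Col and jaz10 arrays (at most 45.9 in phyb and 38.9 in jaz10phyb). This difference is thus partly selected by the filter. The call was lost (a count of 0) when any of 12 arrays was left out, that is all but Col Control 1, phyb Control 1, 2 and 3 and both jaz10 Control arrays, and the count was 4 without phyb Control 2 and 3 without phyb Control 3. Across all genes the mock and MeJA differences had a Pearson correlation of -0.186 with all arrays and 0.40 without the doubted arrays (5689 genes, which are not independent replicates). Those values describe how far the doubted arrays weigh within a treatment.

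**Figure D3:**
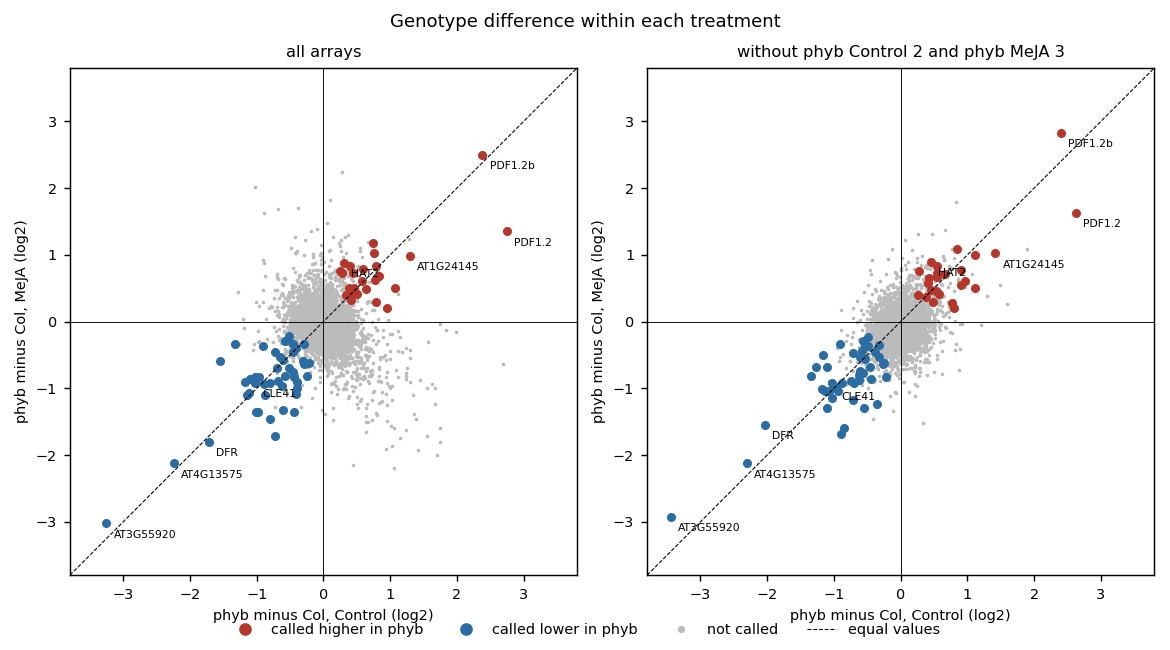
Genotype difference after mock (horizontal axis, log2) against that after MeJA (vertical axis, log2) for 5689 genes, with all arrays (left) and without phyb Control 2 and phyb MeJA 3 (right). The 25 genes called higher and the 46 called lower over both treatments lie in the same-sign quadrants of the left panel, whereas the uncalled genes lean along the opposite diagonal there and along the line of equal values on the right.

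The jaz10 and jaz10phyb arrays gave a second measurement of phytochrome B loss, in plants that also lack JAZ10 and with no array shared with Col and phyb. The spread of the fit is shared by all 18 arrays. There 59 genes were called (1.04%), 25 higher (0.439%) and 34 lower (0.598%). Of the 25 genes higher in phyb, 24 had the same sign (AT1G14580 was at 0.37 against Col and -0.02 here) and 12 were called in this background too, which is 48.0% of either list. Of the 46 lower genes, 40 had the same sign and 16 were called, 34.8% of the 46 and 47.1% of the 34. No gene was called in opposite directions. The median difference of the higher genes was 0.59 against Col and 0.53 in the jaz10 background, and that of the lower genes -0.77 and -0.38. Over the 5689 genes the differences had a Pearson correlation of 0.549, as a description across genes. The count of 59 moved to 204 (3.59%) without both doubted phyb arrays and to 99 without phyb Control 2 alone, although those arrays enter only the spread. It was 8 and 16 without jaz10 MeJA 1 or 2, 23 without jaz10 Control 1, and 22 to 27 without any jaz10phyb array.

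**Figure D4:**
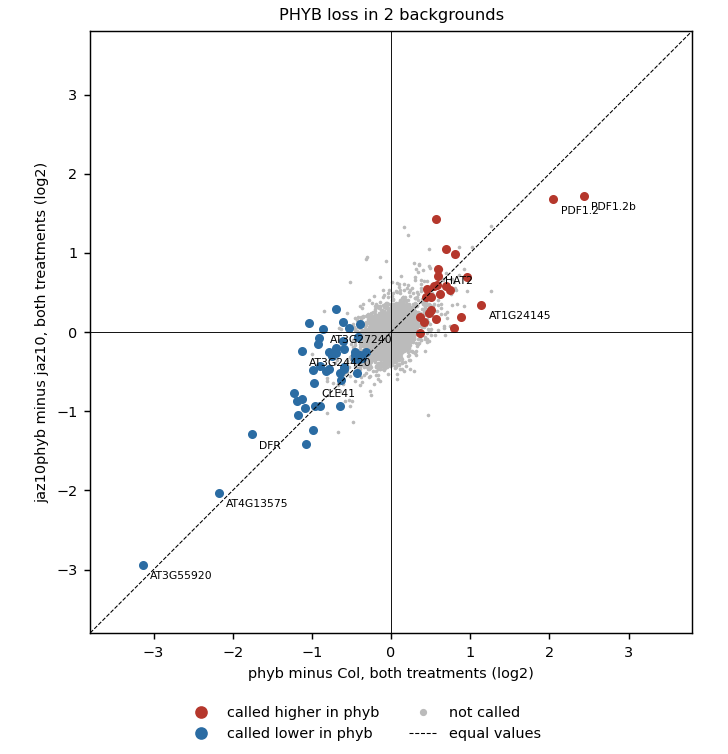
Difference phyb minus Col (horizontal axis, log2) against jaz10phyb minus jaz10 (vertical axis, log2), both over the 2 treatments, for 5689 genes (red and blue, the 25 and 46 genes called higher and lower in phyb). AT3G55920 (-3.14 and -2.94) and AT4G13575 (-2.18 and -2.03) lie on the line of equal values, while AT3G24420 (-1.13 and -0.25) and AT3G27240 (-0.86 and 0.04) lie off it.

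The largest differences were met again in this background. AT3G55920 lay between 124 and 147 in the 4 jaz10 arrays and between 11 and 19.6 in the 4 jaz10phyb arrays (-2.94 ± 0.17, adjusted p = 1.1e-06). It therefore separated the 8 arrays with phytochrome B from the 10 without it. AT4G13575 did so as well, with 252 to 271 in jaz10 and 46.6 to 85.8 in jaz10phyb. PDF1.2b (1.72 ± 0.34, adjusted p = 0.0294), PDF1.2 (1.68 ± 0.36, adjusted p = 0.0436) and THI2.2 (0.58 ± 0.11, adjusted p = 0.0218) rose again. DFR (-1.29 ± 0.24, adjusted p = 0.0218), AT5MAT (-0.93 ± 0.20, adjusted p = 0.0436), CLE41 (-0.64 ± 0.12, adjusted p = 0.0218), CLE44 (-0.52 ± 0.11, adjusted p = 0.0458) and NDC1 (-0.46 ± 0.09, adjusted p = 0.0292) fell again. HAT2 rose by 0.79 ± 0.14 (adjusted p = 0.0143), and IAA29 was at 1.34 ± 0.39 (adjusted p = 0.132), close to its 1.26 against Col. EXPA16 (-0.20 ± 0.12), SWEET1 (0.12 ± 0.14), BRH1 (0.13 ± 0.08) and AT1G24145 (0.35 ± 0.16) did not pass in this background, and the test of the difference between backgrounds called none of these 4 either.

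In 32 genes all 10 arrays without phytochrome B lay on 1 side of all 8 with it, 13 higher (0.229% of genes tested) and 19 lower (0.334%). Of these, 25 were among the 71 called genes. They included the 2 defensins and THI2.2 on the higher side, and CLE44, NDC1 and UPP on the lower side. AT1G52220 and AT4G14480, listed under the synonyms CURT1C (a thylakoid membrane curvature protein) and BLUS1 (a kinase of blue-light stomatal opening), were on the lower side too, at -0.37 ± 0.08 and -0.39 ± 0.08. Both were chosen after their values were seen, and both lost the call when any Col array, phyb Control 3 or phyb MeJA 1 was left out, AT1G52220 also without phyb Control 1 or a jaz10 MeJA array and AT4G14480 without phyb MeJA 2 (adjusted p up to 0.141 and 0.122). DFR was not among the 32, because the jaz10phyb MeJA arrays reached 215 and 266 and the jaz10 Control arrays read 197 and 285. Of the 32, THI2.2 reached the minimum signal for testing only without phytochrome B (at most 46.5 with it). CLE44, AT4G14480, AT4G12005 and AT4G22520 reached it only with phytochrome B (at most 35.8, 41.5, 34.0 and 44.4 without it). The counts of separating genes are thus partly selected by the filter. NDC1 and UPP lay above the minimum in every array (lowest 73.2 and 73.9).

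A different pattern appeared in genes where Col alone stood apart. The test of the difference between backgrounds called 5 genes (0.0879%; 305 at an unadjusted p under 0.05, and 12, or 0.211%, called without the doubted arrays). AT3G27240 read 229, 217, 251 and 233 in Col and 128, 141, 114, 120, 135 and 129 in phyb, a fall of 0.86 ± 0.08 (adjusted p = 8.03e-05). It lay between 121 and 143 in jaz10 and between 125 and 152 in jaz10phyb, so every array outside Col was low, with or without phytochrome B. AT3G27210 (Col 53.2 to 67.5, all others 26.4 to 43.2) had the same form. It reached the minimum signal for testing only in Col. This form, its fall in phyb and its call by this test are thus partly selected by the filter. The reference table places AT3G27230 directly beside AT3G27240 and 2 genes from AT3G27210, and it too was high in Col (87.5 to 104) and low in all 14 other arrays (37.1 to 65.0). These neighbours on chromosome 3 fell by 0.70 ± 0.10 (AT3G27210), 0.91 ± 0.12 (AT3G27230) and 0.86 ± 0.08 (AT3G27240) in phyb, and all 3 calls held without any array. In the jaz10 background their differences were 0.29 ± 0.10, -0.07 ± 0.13 and 0.04 ± 0.09. AT3G27230 was chosen after its values were seen. The count of 5 calls ranged from 0 to 7 as single arrays were left out, and it was 0 without Col Control 1, Col MeJA 1, jaz10 Control 1, either jaz10phyb Control array or jaz10phyb MeJA 2, 1 without jaz10 MeJA 1, and 3 without Col Control 2, phyb Control 1, phyb Control 3 or jaz10 MeJA 2.

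AT3G24420, called by the same test, read 122, 122, 189 and 199 in Col and 65.0, 75.0, 70.4, 62.9, 63.4 and 84.3 in phyb (-1.13 ± 0.09, adjusted p = 2.86e-05). The jaz10 arrays (116 to 145) and the jaz10phyb arrays (90.9 to 118) lay between these, and differed by -0.25 ± 0.10 (adjusted p = 0.374). The remaining 2, AT1G48100 and AT1G79520, were higher in jaz10phyb than in jaz10 (0.92 ± 0.13, adjusted p = 0.00613, and 0.63 ± 0.13, adjusted p = 0.0436). Against Col they were at -0.31 ± 0.12 (adjusted p = 0.271) and -0.52 ± 0.12 (adjusted p = 0.0671), so neither was called there. AT1G79520 came to a call against Col without phyb MeJA 1, jaz10 Control 1 or jaz10 Control 2 (adjusted p down to 0.0336).

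**Figure D5:**
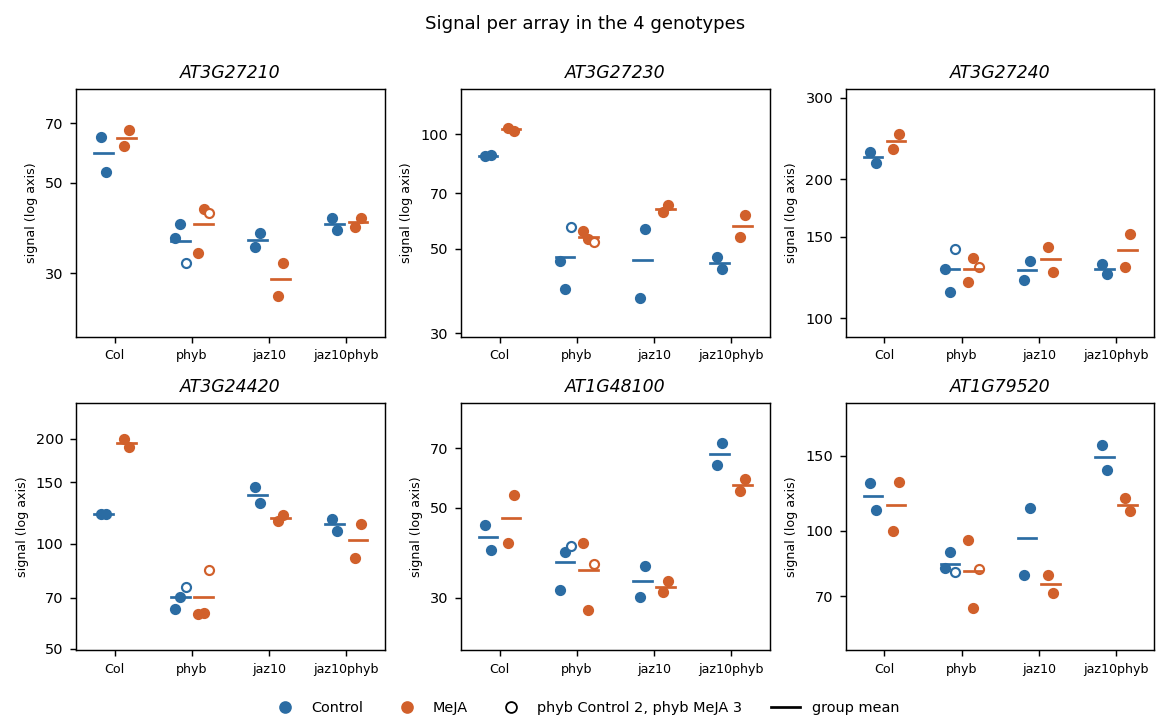
Signal of 6 genes in each array of the 4 genotypes (vertical axis, signal on a log scale; blue, Control; orange, MeJA; bars, arithmetic group means; open circles, phyb Control 2 and phyb MeJA 3). The 3 neighbouring genes in the top row are high in Col alone (AT3G27240, 217 to 251 in Col and 114 to 152 elsewhere), whereas AT3G24420 is lowest in phyb (62.9 to 84.3).

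Of the cold and dehydration list 3 genes were called in the jaz10 background and none against Col, but the test of the difference between backgrounds called none of them, so a difference between backgrounds is not shown. LTI30, a dehydrin, differed by -0.07 ± 0.14 between phyb and Col (adjusted p = 0.907) and by 0.90 ± 0.15 between jaz10phyb and jaz10 (adjusted p = 0.0131). COR15B, a cold-induced plastid protein, was at 0.12 ± 0.11 and 0.71 ± 0.12 (adjusted p = 0.748 and 0.0152), and KIN2, a small cold-induced protein, at 0.17 ± 0.07 and 0.53 ± 0.08 (adjusted p = 0.386 and 0.00939). The list had 5 tested genes, with medians of 0.12 against Col and 0.63 in the jaz10 background, where 0.439% of all genes tested were called higher. LTI30 reached the minimum signal for testing only in jaz10phyb (up to 56.5). It read at most 18.9 in phyb and at most 23.7 in arrays with phytochrome B. Its call in the jaz10 background, and its part in the count of 3 and in that median, are thus partly selected by the filter. The adjusted p of the difference between backgrounds was 0.17 for LTI30, 0.59 for COR15B and 0.62 for KIN2.

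The called genes were otherwise spread over the nuclear chromosomes. The share called was 1.04% on chromosome 1, 0.721% on chromosome 2, 1.66% on chromosome 3, 1.77% on chromosome 4 and 1.21% on chromosome 5. On chromosome 4, 14 of the 15 called genes were lower in phyb, and on chromosome 3, 15 of 19. Other called genes within 10 places of each other in the reference order were AT4G12000 and AT4G12005, which are adjacent (-0.61 and -1.22), and AT5G03120 and JKD, which are 3 places apart (0.89 and 0.61). AT4G05631 and AT4G06534 were 5 places apart (-0.43 and -0.46), and AT4G22485 and AT4G22520 were 8 apart (-1.09 and -1.19). SWEET1 and AT1G21440, 2 places apart, moved in opposite directions (-0.61 and 0.37). These 5 pairs were noticed after the values were seen. The call of AT4G06534 was lost without any array other than phyb Control 2 (adjusted p up to 0.22), and that of AT4G22485 without any Col array or phyb Control 3 (adjusted p up to 0.152). The call of AT4G12000 was lost without Col Control 1 or Col MeJA 1 (adjusted p up to 0.0691), and that of AT1G21440 without any Col array, phyb Control 1 or 3, or phyb MeJA 2 or 3 (adjusted p up to 0.161). MeJA called 5 of the 25 higher genes (20%) and 12 of the 46 lower genes (26.1%) in the jaz10 and jaz10phyb arrays, against 26.1% of all genes tested, so the genotype calls held about the usual share of MeJA-responsive genes. Their mean signal was close to that of other genes, with medians of 6.40 and 6.16 on the log2 scale against 6.59.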

How the data were processed

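Whole-plant RNA pools were hybridised to 1-colour Affymetrix Arabidopsis Gene ST arrays. The deposited values are linear signal intensity. Per the submitters' processing notes, the authors used Affymetrix Expression Console, while its version, the summarisation method and the build were not stated in the labels used here. Array medians of 14.87 to 17.5 showed the linear scale.

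The platform annotation paired 16722 of 38408 probe sets with 1 gene, 759 with several and 20927 with none, and 16574 of the first were matched to a TAIR10.1 gene table used for names and gene order only. Per gene, the brightest probe set by mean was kept where it reached 50 on some array, leaving 5689 genes, 854 with a symbol. A limma model (limma 3.58.1, R 4.3.3) of log2(signal + 1) with a mean for each of 8 groups was fitted to all 18 arrays (10 residual degrees of freedom), with Benjamini-Hochberg adjustment over 5689 genes and calls under 0.05. It was tested on simulated data. Alternatives were other filters (none or 100), a pseudocount of 16, centring, quantile normalization, separate fits, a replicate block, trend and robust eBayes, all single-gene probe sets, unadjusted p with a 2-fold minimum, and arrays left out.

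Deviations from group means of phyb and Col arrays of the same number had correlations from -0.149 to -0.0883. Deviations of 2 Col arrays mirror each other, and each phyb group holds a doubted array. These values therefore cannot tell if replicate numbers pair the samples, and no pairing was used in the main fit. Named genes were called genes whose groups did not overlap within either treatment, by size (up to 12 a direction with a symbol, 5 without), up to 4 members of each list with at least 2 tested genes, and called genes of the 2 difference tests. Others are marked as picked with their values in view, or are sole tested members of a list. The genotype comparison, the gene lists and the tests were chosen with earlier results of these data known. Promoter sequences were not analysed here.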

Additional observations from a re-analysis of the deposited data

Results flagged for a closer look

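In 6 genes the difference between plants without and with phytochrome B was unequal between treatments or backgrounds, by a test of the difference itself. For AT3G56260 the difference phyb minus Col was 1.49 lower after MeJA than after mock (-1.49 on the log2 scale), and it was the single gene called by that test. For 5 genes the difference phyb minus Col was below jaz10phyb minus jaz10: AT1G48100 by -1.23, AT1G79520 by -1.15, AT3G27210 by -0.99, AT3G27240 by -0.90 and AT3G24420 by -0.89. In AT1G48100 and AT1G79520 the calls between genotypes were in the jaz10 background, and in AT3G27210, AT3G27240 and AT3G24420 they were against Col. AT3G56260, AT3G27210 and AT1G48100 reached the minimum signal for testing only in genotypes where they were higher, so their differences are partly selected by the filter. The cause of the differences in these 6 genes was not tested. No gene was searched for outlying single arrays, since no group holds 4 arrays.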

How the results depend on the processing

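For the 155 named or called genes, 4264 of 4297 values under other settings kept their direction, 419 lost a call and 24 gained one. No called gene changed sign. In 13 uncalled genes 33 values did, none called (adjusted p of 0.538 or more). The replicate block gave -0.023 for PORB, -0.19 for CYP71B5, 0.060 for IQD22, 0.015 for SMZ, 0.23 for GID1A, 0.34 for JMT, 0.69 for JRG21, 0.10 for BIM1 and -0.11 for EXPA8. Quantile normalization gave -0.0041 for atpF, and GID1A was at 0.0032 with centring and 0.00020 without the doubted arrays. With arrays left out singly the range was -0.13 to 0.034 for MYC4, -0.13 to 0.056 for BIM1, -0.0072 to 0.094 for ALDH22A1, -0.61 to 0.22 for JMT, -0.19 to 0.020 for IQD22, -0.22 to 0.081 for LTI30, -0.15 to 0.13 for GID1A, -0.59 to 0.48 for JRG21 and -0.076 to 0.33 for CYP71B5. A pseudocount of 16 moved AT3G55920 from -3.14 to -2.31 and AT4G14090 from -1.17 to -0.73. Counts of calls moved more, in the order both treatments, Control, MeJA, difference between treatments, jaz10 background and difference between backgrounds, from 71, 27, 55, 1, 59 and 5. Without the 2 doubted arrays they were 225, 58, 160, 4, 204 and 12. With arrays left out singly they ranged from 35 to 167, 2 to 38, 8 to 164, 0 to 4, 8 to 99 and 0 to 7. Fits on only the groups compared gave 37 (all among the 71), 2, 12, 0 and 145 for the first 5. The replicate block gave 46 (42 of them among the 71, none of which changed sign), 58, 24 and 0 for the first 4. Whether the replicate numbers pair the samples is not known. With no filter the MeJA, treatment difference, jaz10 and background difference counts were 34, 0, 36 and 0. With a signal of at least 100 the treatment and background differences gave 0 and 3. Centring and quantile normalization gave 0 for the treatment difference, and trend with robust eBayes gave 2. Unadjusted p with a 2-fold minimum gave 17, 41 and 182 for both treatments, Control and the treatment difference, and 16 for jaz10. Centring split the calls 34 higher to 44 lower. The cause of these moves was not tested, beyond more genes or fewer arrays in a fit. Array number limits the precision, and dim genes are understated by the log2(signal + 1) scale.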

Other observations

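The probe sets without a gene of their own held calls as well. When all 14444 probe sets that reached 50 on some array were fitted together, 63 were called higher in phyb and 78 lower. Of these, 19 higher and 39 lower were among the 5732 probe sets with 1 gene, and 44 higher and 39 lower among the 8712 with several genes or none. The latter are unnamed here.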
